A study of Danio rerio with 24 samples.

Results

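At 3 days post fertilization (dpf), tail cells sorted as endothelial cells (EC) were compared with tail cells that carried neither reporter (double-negative, DN), with 2 libraries on each side. These 4 libraries of the 24 in the series were chosen by their labels, and all 25067 genes of the deposited table were compared. The zebrafish were double transgenic Tg(kdrl:mCherry/CD41:GFP): mCherry driven by kdrl marks endothelium, and green fluorescent protein driven by the promoter of CD41, an integrin of thrombocytes and blood progenitors, marks thrombocytes and the stem and progenitor cells of blood (HSPCs). Both groups shared this genotype, the stage and the tail, which the sample titles call CHT, and no treatment is named. The labels name neither the number of embryos pooled nor the gates. Libraries were made from poly(A) RNA. EC and DN sorts of the same line at 36 hours post fertilization (hpf), 2 libraries each, serve below for a comparison between stages, and the 2 HSPC libraries at 3 dpf stand beside some values.

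The caudal hematopoietic tissue (CHT) is a plexus of tail vein and surrounding stroma where blood stem cells that leave the dorsal aorta lodge and divide before they move to the kidney and thymus. Its endothelium wraps around the stem cells and supplies signals such as Kit ligand and Cxcl12, while neutrophils, macrophages and maturing red cells form and pass through the same vessels. Cells that carry neither reporter make up the rest of a tail: spinal cord, muscle, notochord, skin, fin fold and loose mesenchyme.

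The 4 libraries held 10234298 and 13155373 recovered reads (EC, replicate 1 first, here and below) and 11268236 and 10541638 (DN). Values are FPKM, reads scaled for gene length and for the library's total. Replicates ranked genes alike, with a Spearman correlation across genes of 0.927 in EC and 0.941 in DN, and the counts of a pair differed by more than sampling noise, with a mean chi-square per gene of 42.2 (EC) and 30.6 (DN). Log2 fold changes are EC minus DN on the log2(FPKM + 1) scale, ± the standard error (SE) from limma, and a gene was called higher or lower at a Benjamini-Hochberg adjusted p under 0.05 and a change of at least 1 in size. Nothing in the labels says that replicates came from different clutches or sorting runs, and the spread behind each p-value may therefore be technical. In bulk libraries, fewer cells of a type and less RNA per cell cannot be told apart.

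The genes behind the reporters did not sit as the labels would have them. kdrl, the vascular endothelial growth factor receptor whose promoter drives mCherry, was at 0.333 and 0.323 FPKM in the EC-labelled libraries and 0.257 and 0.388 FPKM in the DN libraries. The groups overlapped, and the log2 fold change was 0.01 ± 0.23 (adjusted p = 0.984), a sign that turned with scaling (-0.098 at a common FPKM sum, -0.030 by median-of-ratios scaling) and without DN replicate 1 (-0.063). itga2b, which encodes CD41, was at 6.55 and 5.72 FPKM in the EC-labelled libraries, close in size to its 6.54 and 7.98 FPKM in the HSPC libraries. In DN libraries it was at 0.0708 FPKM and listed at 0, a log2 fold change of 2.78 ± 0.24 (adjusted p = 1.7e-06). The reporters are fluorescent proteins, whereas these values are transcripts of the genes themselves. How the transcripts related to reporter fluorescence was not tested. Because the label and these transcripts disagree, the libraries are called EC-labelled here, and every direction below is that of the labelled libraries.

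**Figure D1:**
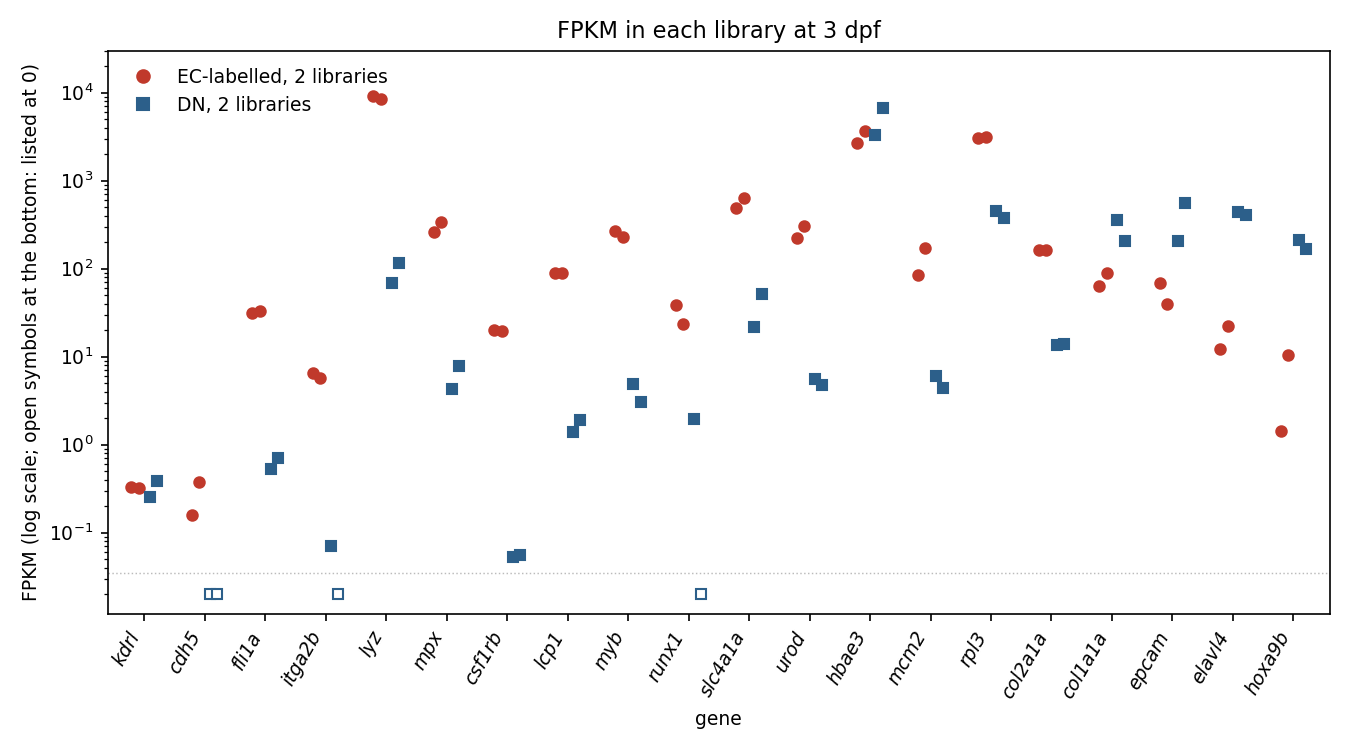
FPKM of 20 genes on a log scale in each of the 2 EC-labelled (circles) and 2 DN libraries (squares) at 3 dpf, with open symbols for values listed at 0. kdrl overlaps between the groups, lyz reaches 9112 and 8522 FPKM in EC-labelled against 68.0 and 116 FPKM in DN libraries, and elavl4 lies at 12.4 and 22.1 against 444 and 412 FPKM.

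Blood genes were higher and neural and hox genes lower in the EC-labelled libraries, and endothelial genes went both ways. Of 18791 genes tested, 3431 (18.3%) were called higher and 5425 (28.9%) lower, 47.1% in all. EC-labelled libraries lay above both DN libraries for 30.3% of genes and below both for 44.3%. The median log2 fold change of all genes was -0.24. Scaling moved it to -0.50 at a common FPKM sum, -0.32 by median-of-ratios and -0.18 by limma-voom on recovered reads. Over 34 gene lists with 839 different genes tested, 347 members were higher and 201 lower (128 lower with all 24 libraries). These shares of list members stand against 18.3% and 28.9% of all genes. By limma-voom, which takes no pseudocount of 1 FPKM, some list medians were much larger, 5.20 for macrophage, 4.34 for thrombocyte, 4.08 for lymphoid, 5.12 for cytokine receptor and 1.63 for endothelial genes (2.47, 2.26, 0.86, 1.89 and 0.51 in FPKM). A fit of all 24 libraries called fewer members of many lists, and its count is given below beside counts of 4 or more that it lowers by over 1.5 times.

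**Figure D2:**
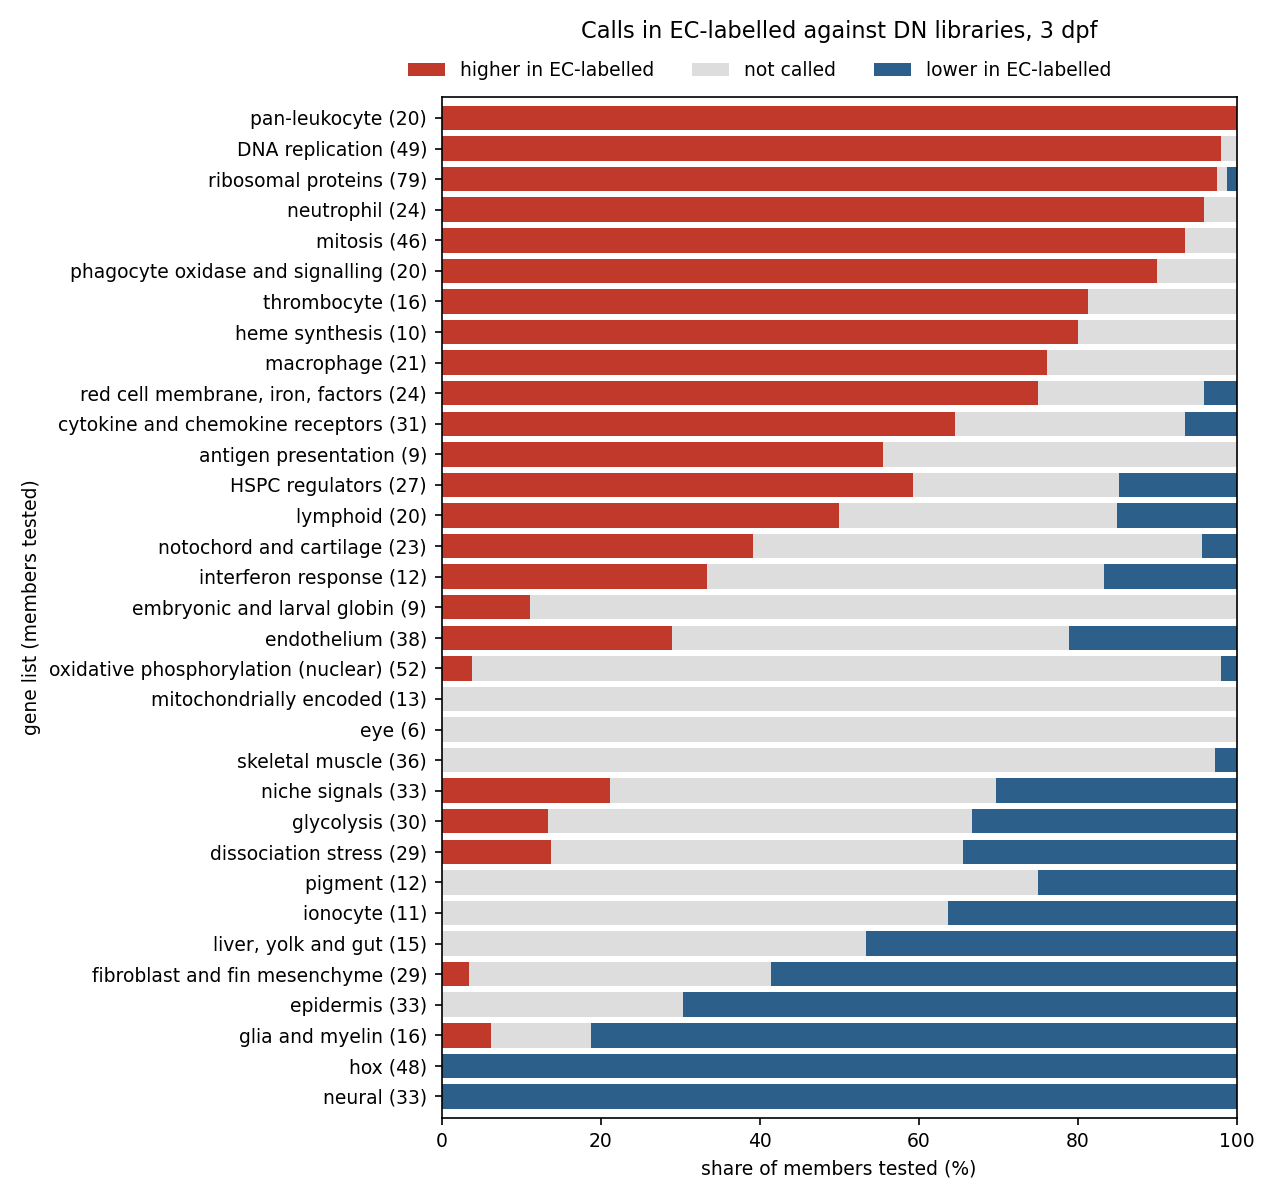
Share of tested members called higher (left, red), not called (grey) or lower (right, blue) in EC-labelled against DN libraries at 3 dpf for the 33 lists with 6 or more members tested, their number in brackets. Pan-leukocyte genes are all higher and neural and hox genes all lower, while muscle and mitochondrially encoded genes are nearly or wholly uncalled.

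Endothelial markers did not move together. Of 42 listed, 38 were tested: 11 were higher, 8 lower and 19 not called, with a median of 0.51. For 20 of the 38 both EC-labelled libraries lay above both DN libraries and for 9 below, against 30.3% and 44.3% of all genes. The 4 genes that follow, receptor, junction and secreted proteins of endothelium, were picked after their values were seen and were low in all 4 libraries, unlike the higher list members described after them. cdh5, the adhesion molecule of endothelial junctions, was at 0.157 and 0.378 FPKM in EC-labelled libraries and listed at 0 in both DN libraries. pecam1, another junction protein, was at 1.52 and 0.865 against 0 and 0.320 FPKM. flt4, the receptor of veins and lymphatics, was at 0.330 and 0.325 against 0.260 and 0.598 FPKM. egfl7, a secreted endothelial protein, was at 0.286 and 0.722 against 0.908 and 0 FPKM. None of these 4 genes was called, and for cdh5 and pecam1 alone did the groups not overlap. The summed FPKM of the list was 278.5 and 280.3 in EC-labelled and 287.4 and 254.4 in DN libraries, so the groups overlapped there too.

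The endothelial list members with the largest rises were transcription factors and receptors. fli1a, an ETS factor of endothelium and blood, was at 31.7 and 32.7 FPKM in EC-labelled and 0.526 and 0.711 FPKM in DN libraries (4.36 ± 0.32, adjusted p = 5.2e-07). Its duplicate fli1b was at 18.3 and 18.6 against 0.299 and 0 FPKM (4.09 ± 0.27). tal1, required for blood and endothelial fate, was at 102 and 107 against 28.7 and 26.1 FPKM (1.89 ± 0.17). In each case the libraries of a group lay close together and far from the other group. notch1b, a Notch receptor, rose by 2.24 ± 0.28, from 2.84 and 2.43 FPKM in DN to 14.9 and 17.6 FPKM in EC-labelled libraries. mrc1a, a scavenger receptor of venous and lymphatic endothelium, was at 2.60 and 2.72 against 0.0171 and 0 FPKM (1.86 ± 0.35). In HSPC libraries mrc1a was at 0.528 and 0.348 FPKM and notch1b at 21.7 and 16.1 FPKM. There fli1a was at 48.6 and 33.8, fli1b at 27.0 and 29.2 and tal1 at 99.9 and 115 FPKM. Of the lower members, nr2f2, a venous fate factor that mesenchyme also expresses, was at 3.60 and 5.41 against 119 and 85.7 FPKM (-4.23 ± 0.37). dll4, a Notch ligand of arteries and of neurons, was at 2.03 and 2.90 against 26.4 and 20.2 FPKM (-2.81 ± 0.24). The artery and vein partners efnb2a (-2.65 ± 0.30) and ephb4a (-2.69 ± 0.36) and the lymphatic factor prox1a (-2.47 ± 0.54) were lower as well. The count of higher members depended on low values: it was 5 with a pseudocount of 5 FPKM, 5 with all 24 libraries and 15 by voom.

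Neutrophil genes were higher almost throughout. Of 26 listed, 24 were tested and 23 were higher, with a median of 4.21, and for all 24 both EC-labelled libraries lay above both DN libraries, as for 30.3% of all genes. lyz, lysozyme, was at 9112 and 8522 FPKM against 68.0 and 116 FPKM (6.61 ± 0.27, adjusted p = 2.3e-08), and the HSPC libraries held 3949 and 3683 FPKM. npsn, a neutrophil protease, was at 531 and 773 against 8.68 and 6.09 FPKM (6.28 ± 0.27). srgn, the proteoglycan of secretory granules, was at 472 and 455 against 5.20 and 5.61 FPKM (6.18 ± 0.27). These 3 genes were also high in HSPC libraries, npsn at 222 and 226 and srgn at 213 and 272 FPKM. mpx, myeloperoxidase, was at 262 and 339 against 4.28 and 7.81 FPKM (5.45 ± 0.27), and cpa5, a protease also known from mast cells, at 106 and 101 against 0.262 and 2.59 FPKM (5.61 ± 0.47). mmp13a, a collagenase, was at 660 and 353 against 7.75 and 38.8 FPKM (4.70 ± 0.74) and at only 11.4 and 13.3 FPKM in HSPC libraries. ncf1, a subunit of the phagocyte oxidase, differed between the EC-labelled replicates, 216 against 58.8 FPKM, and was at 4.24 and 5.38 in DN libraries (4.30 ± 0.55). Together, the list took 2.48% and 2.18% of the FPKM sum of the EC-labelled libraries and 0.0369% and 0.0773% of that of the DN libraries.

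Genes shared by all white cells were higher throughout: 20 of 20 tested pan-leukocyte members, median 4.19. That median and the neutrophil one exchanged order with scaling (3.98 and 3.96 at a common FPKM sum, 5.93 and 5.57 by voom). lcp1, the actin bundler L-plastin, was at 90.3 and 88.8 FPKM against 1.39 and 1.91 FPKM (5.10 ± 0.23). laptm5, a lysosomal membrane protein of leukocytes, was at 126 and 115 against 2.31 and 1.54 FPKM (5.39 ± 0.34), and lcp2a, an adaptor of antigen receptor signalling, at 59.7 and 35.6 against 0.500 and 0.0890 FPKM (5.21 ± 0.34). The cytoskeletal and oxidase genes that phagocytes use were higher in 18 of 20 cases tested, with a median of 3.12. Among these, coro1a, which disassembles actin, was at 208 and 262 against 5.43 and 4.87 FPKM (5.26 ± 0.29), arpc1b, an Arp2/3 subunit, at 278 and 308 against 6.99 and 9.03 FPKM (5.04 ± 0.32), and the Wiskott-Aldrich protein gene wasb rose by 4.94 ± 0.49. btk, the Tec kinase, was higher by 4.27 ± 0.28. Of these genes coro1a, wasb and btk are also members of the pan-leukocyte list, so the counts of both lists overlap. Summed over the pan-leukocyte list, HSPC libraries held 910.6 and 1076 FPKM beside 1108 and 1160 FPKM in EC-labelled libraries, and over the phagocyte list 911.5 and 1050 beside 1410 and 1315 FPKM. HSPC libraries held lcp1 at 88.6 and 82.2 FPKM and coro1a at 154 and 226 FPKM, but arpc1b at 165 and 167 FPKM.

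Macrophage genes rose less evenly. Of 26 listed, 21 were tested, 16 were higher and none was lower (median 2.47). Without DN replicate 1, 1 was lower. csf1rb, a receptor for colony stimulating factor, was at 20.2 and 19.4 against 0.0527 and 0.0563 FPKM (4.30 ± 0.23). ctss2.1, a cathepsin, was at 243 and 224 against 2.51 and 17.9 FPKM (4.85 ± 0.64). il1b, the inflammatory cytokine, was at 726 and 359 against 6.54 and 20.6 FPKM (5.33 ± 0.45). In HSPC libraries csf1rb was higher, at 71.05 and 57.0 FPKM. There ctss2.1 was lower, at 37.0 and 49.8 FPKM, as was il1b, at 75.6 and 52.6 FPKM. The receptors cxcr3.2 (4.55 ± 0.34) and cmklr1 (3.71 ± 0.56) rose too. The 2 perforin genes of the list differed from each other. mpeg1.1 was at 2.86 and 9.35 against 0.169 and 0 FPKM and was higher. mpeg1.2 was at 8.56 and 2.94 against 3.87 and 49.6 FPKM and was not called. For mpeg1.2 the groups overlapped, with its highest value in DN replicate 2.

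Red cell genes split by kind. Of 10 genes of heme synthesis, 8 were higher (median 3.64) and alas1 and alas2, which make the first intermediate, were not. alas2, the red cell form, was at 56.5 and 88.5 FPKM in EC-labelled and 36.1 and 94.6 FPKM in DN libraries, which overlap. urod, which trims the heme ring's side chains, was at 225 and 306 against 5.63 and 4.77 FPKM (5.41 ± 0.24, adjusted p = 2.5e-08). alad, the enzyme after Alas, was at 53.5 and 75.7 against 1.62 and 2.46 FPKM (4.42 ± 0.30). hmbsa and hmbsb, duplicates of the next enzyme, rose by 4.48 ± 0.39 and 4.79 ± 0.53, and cpox by 3.65 ± 0.42. Each of these 5 genes was higher in EC-labelled replicate 2 than in replicate 1, and in neither replicate near the DN values. The count of 8 was 5 with all 24 libraries.

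Membrane, iron and factor genes of red cells rose in 18 of 24 cases (median 2.15), a count of 6 with all 24 libraries. slc4a1a, the band 3 anion exchanger, was at 492 and 635 against 21.6 and 51.1 FPKM (4.03 ± 0.34). tfr1a, the transferrin receptor, was at 136 and 179 against 4.26 and 11.6 FPKM (4.27 ± 0.39). rhag, a Rhesus-associated channel, was at 178 and 91.0 against 1.87 and 10.18 FPKM (4.50 ± 0.50). DN replicate 2 held more of all 3 than DN replicate 1, and still far less than either EC-labelled library. epor, the erythropoietin receptor, rose by 4.24 ± 0.38 and gfi1b, a repressor of red cell and platelet lineages, by 4.32 ± 0.40. The one lower member was ank1b, an ankyrin, at 2.24 and 3.41 against 58.7 and 64.2 FPKM (-4.05 ± 0.38). ank1b is listed for its place in the red cell skeleton, and which cells gave its transcript was not tested.

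The globins themselves did not follow. Of 9 embryonic and larval globin genes, 1 was higher and 8 were not called, with a median of 0.22 that turned to -0.12 at a common FPKM sum. hbae3, the most abundant, was at 2692 and 3644 FPKM in EC-labelled and 3297 and 6754 FPKM in DN libraries, so the groups overlapped. Summed over the list, EC-labelled libraries held 4258 and 6710 FPKM and DN libraries 4460 and 8785 FPKM, against 124.1 and 121.3 FPKM in the HSPC libraries. The replicates of each sort spread as widely as the sorts did, and the EC-labelled libraries held 64.3% and 101% of the DN mean. The called gene, hbae1.3, was at 101 and 294 against 18.1 and 93.8 FPKM (2.03 ± 0.65). Its call was lost without EC replicate 2 (1.26) and without DN replicate 1 (0.87). The list's calls depended, in number and direction, on which library was left out. At a common FPKM sum 1 member was called lower. These genes lie in near-identical copies, and whether the counting split their reads between copies was not tested.

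**Figure D3:**
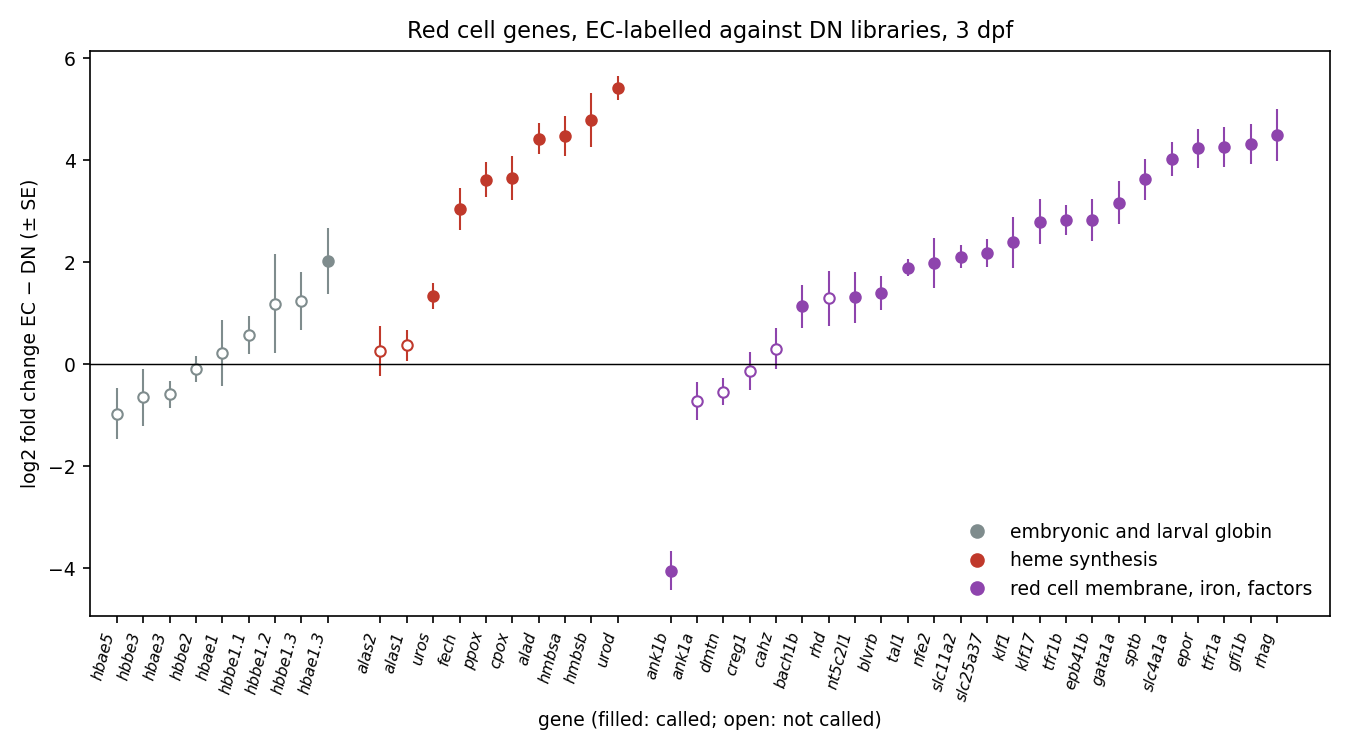
Log2 fold change, EC-labelled minus DN at 3 dpf, with its SE for the tested globin (grey), heme synthesis (red) and membrane, iron and factor genes (purple), filled where called. Globins lie around 0, the enzymes after Alas between 1.34 and 5.41, and ank1b alone lies far below 0 at -4.05.

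Regulators of blood stem and progenitor cells were mostly higher: 16 of 27 tested, with 4 lower and a median of 1.67. myb, needed for definitive blood, was at 271 and 227 against 4.92 and 3.03 FPKM (5.67 ± 0.32, adjusted p = 9.9e-08), beside 294 and 291 FPKM in the HSPC libraries. runx1, which starts definitive blood, was at 38.9 and 23.7 against 1.96 and 0 FPKM (4.19 ± 0.48), beside 38.2 and 40.2 FPKM in HSPC libraries. For both genes the EC-labelled and HSPC values are close in size and far from the DN values. ikzf1, the lymphoid and myeloid factor Ikaros, was at 39.6 and 48.3 against 0.771 and 0.206 FPKM (4.93 ± 0.29), and spi1b, the myeloid factor Pu.1, at 57.2 and 43.6 against 0.359 and 0.997 FPKM (4.95 ± 0.34). The 4 lower members were meis1b, meis1a, pbx1a and gata2a. meis1b, a Hox cofactor, was at 22.2 and 27.01 against 296 and 223 FPKM (-3.34 ± 0.19), its duplicate meis1a fell by 1.995 ± 0.31, the cofactor pbx1a fell by 2.81 ± 0.34 and gata2a fell by 1.82 ± 0.22.

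Thrombocyte genes rose with itga2b in 13 of 16 cases (median 2.26). fermt3b, the kindlin that activates integrins in blood cells, was at 63.0 and 69.2 against 0.325 and 0.411 FPKM (5.62 ± 0.29). rasgrp2, which activates Rap1 in platelets, was at 23.0 and 19.2 against 0.219 and 0.0425 FPKM (4.29 ± 0.26). f13a1b, a coagulation factor subunit, was at 24.1 and 27.2 against 1.01 and 0.149 FPKM (4.13 ± 0.37). mpl, the thrombopoietin receptor, was at 8.12 and 5.77 FPKM in the EC-labelled libraries and listed at 0 in both DN libraries. HSPC libraries held more of mpl (19.6 and 23.3 FPKM), rasgrp2 (59.8 and 56.6 FPKM) and fermt3b (89.1 and 84.9 FPKM). They held less of f13a1b (7.72 and 17.6 FPKM).

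Of the lymphoid list, 10 of 20 tested members were higher and 3 lower. ccr9a, a receptor for thymus homing, was at 329 and 326 against 0.574 and 1.79 FPKM (7.29 ± 0.48, adjusted p = 2.8e-07), beside 299 and 303 FPKM in HSPC libraries. The common cytokine receptor chain il2rga was at 39.3 and 31.2 against 1.41 and 0.919 FPKM (4.07 ± 0.29), and its kinase jak3 rose by 3.89 ± 0.38. The factor runx3 rose by 3.98 ± 0.32. Of the 3 lower members, tox was at 13.2 and 13.4 against 180 and 202 FPKM (-3.75 ± 0.27). ebf1a fell by 3.51 ± 0.30 and gata3 fell by 1.66 ± 0.21. Antigen presentation genes were higher in 5 of 9 cases, among them mhc1zba (2.18 ± 0.28) and b2m (2.93 ± 0.44). That count was 3 by median-of-ratios scaling and 0 with all 24 libraries, and the lymphoid count of 10 was 6 with a pseudocount of 5 FPKM. Of 12 interferon response genes 4 were higher and 2 lower (1 and 0 with all 24 libraries). The most abundant of the higher ones was irf7, at 41.6 and 64.0 against 8.47 and 14.8 FPKM (2.103 ± 0.32), and both lower calls were lost without EC replicate 1 or DN replicate 2.

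Among the genes named for the largest rises over the whole table, several are in no list above. blf, a zinc finger factor of early blood, was at 834 and 871 FPKM against 3.09 and 5.12 FPKM (7.42 ± 0.28, adjusted p = 1.5e-08), and at 1459 and 1442 FPKM in HSPC libraries. rgs13, a regulator of G protein signalling, was at 180 and 412 against 4.23 and 0.0742 FPKM (6.85 ± 0.58). ch25hl2, a cholesterol hydroxylase family member, was at 258 and 141 against 1.21 and 3.53 FPKM (5.92 ± 0.41). The first of these genes was still higher in HSPC than in EC-labelled libraries, the third lower, at 41.8 and 29.5 FPKM. znfl2a, a zinc finger gene, rose by 5.66 ± 0.23, and selplg, the selectin ligand of leukocytes, rose by 5.64 ± 0.32, from 0.971 and 0.366 FPKM to 90.4 and 72.0 FPKM.

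Niche signal genes went both ways. Of 33 tested, 7 were higher and 10 lower, shares near the 18.3% and 28.9% of all genes. Lower in EC-labelled libraries was cxcl12a, the chemokine that holds stem cells, at 1.54 and 1.48 against 21.9 and 17.3 FPKM (-3.03 ± 0.30). mdkb, the growth factor midkine, was at 6.31 and 11.1 against 160 and 139 FPKM (-3.997 ± 0.57), and vcam1b, an adhesion ligand, at 0.807 and 0.855 against 14.5 and 13.2 FPKM (-3.02 ± 0.24). The Notch ligands jag2b (-2.43 ± 0.24) and dlc (-1.97 ± 0.25) were lower too. Higher were the cytokine genes csf3b, at 119 and 47.3 against 0.688 and 3.12 FPKM (4.85 ± 0.53), and il34, at 99.9 and 55.6 against 1.01 and 6.31 FPKM (4.30 ± 0.64). csf3a (3.65 ± 0.52), the growth factor gene tgfb1b (4.14 ± 0.28) and angpt1, which encodes angiopoietin (3.79 ± 0.52), rose as well. All of csf3a, csf3b, il34 and angpt1 were higher in EC-labelled replicate 1 than in replicate 2.

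Cytokine and chemokine receptors were higher in 20 of 31 cases, with 2 lower. The 2 lower calls became 1 without EC replicate 2 or DN replicate 2. cxcr4b, the receptor for Cxcl12, was at 244 and 191 against 3.71 and 6.18 FPKM (5.22 ± 0.28). For this pair, cxcr4b transcript was higher in EC-labelled and cxcl12a transcript in DN libraries. The HSPC libraries held 166 and 225 FPKM of cxcr4b and listed cxcl12a at 0.

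Most genes of cell division and protein synthesis were higher. Of 49 DNA replication genes tested 48 were higher (median 2.76), and 26 with all 24 libraries. pcna, the sliding clamp, was at 255 and 503 against 23.7 and 17.1 FPKM (4.09 ± 0.29), and mcm2 of the replicative helicase at 85.5 and 172 against 5.98 and 4.45 FPKM (4.31 ± 0.32). Its partners mcm3, mcm5 and mcm6 rose by 4.27 ± 0.40, 4.29 ± 0.40 and 4.17 ± 0.35. EC-labelled replicate 2 held more of these transcripts than replicate 1, a summed 838% against 506% of the DN mean, and the HSPC libraries were of the same order, with 444 and 510 FPKM of pcna. Mitosis genes were higher in 43 of 46 cases (median 2.70), and in 20 with all 24 libraries, and here the replicates held 725% and 766% of the DN mean. Among them, cdk1, the mitotic kinase, was at 36.3 and 47.1 against 5.26 and 0.694 FPKM (3.70 ± 0.45). The condensin genes smc2, smc4 and ncapg rose by 3.64 ± 0.25, 3.70 ± 0.34 and 3.60 ± 0.26, and cks2, which binds Cdk1, rose by 3.45 ± 0.25.

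Ribosomal protein genes were higher in 77 of 79 cases (median 2.49). rpl3 was at 3026 and 3137 FPKM against 449 and 380 FPKM (2.90 ± 0.11, adjusted p = 1.5e-08). rplp2l, a stalk protein gene, was at 3261 and 3286 against 440 and 324 FPKM (3.11 ± 0.14). The list took 26.8% and 25.6% of the FPKM sum of EC-labelled libraries and 6.83% and 5.70% of that of DN libraries. rpl5a (2.88 ± 0.13) and rps6 (2.85 ± 0.10) rose by similar amounts. The exception was rps8b, a second copy of an S8 gene, at 0.706 and 0.977 against 11.3 and 7.47 FPKM (-2.48 ± 0.33). Since these genes hold a large share of the FPKM sum, their level bears on every other gene's value, and how far it set the changes of other genes was not tested. Their median kept its direction under every scaling tried, from 2.08 at a common FPKM sum to 2.73 by voom.

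Few energy genes were called. Of 52 nuclear genes of oxidative phosphorylation 2 were higher, 1 lower and 49 not called, with a median of 0.39 that turned to -0.02 at a common FPKM sum. Both EC-labelled libraries lay above both DN libraries for 29 of the 52 and below for 3, against 30.3% and 44.3% of all genes. The count of higher genes was 9 by limma-voom, 0 with all 24 libraries, and from 0 to 5 when 1 library was left out. ndufa4, a subunit of cytochrome oxidase, was at 7.52 and 12.1 against 124 and 118 FPKM (-3.53 ± 0.25). cox5ab was at 185 and 260 against 101 and 92.2 FPKM (1.17 ± 0.20) and lost its call without EC replicate 2 (0.93). None of the 13 mitochondrially encoded genes was called, and their median of -0.13 turned to 0.16 by voom. Of 30 glycolysis genes 4 were higher and 10 lower (1 and 6 with all 24 libraries), near the shares of all genes. The enolase genes differed from each other: eno3 was at 150 and 97.2 against 31.5 and 21.4 FPKM (2.17 ± 0.27), eno1a at 26.1 and 36.9 against 207 and 242 FPKM (-2.81 ± 0.19), and the neuronal eno2 at 5.28 and 6.80 against 106 and 132 FPKM (-4.09 ± 0.33). Likewise gapdh (1.69 ± 0.25), pgam1a (1.37 ± 0.20) and hk2 (3.84 ± 0.64) were higher, and pfkla (-3.72 ± 0.25) and tpi1a (-2.53 ± 0.34) lower.

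Early response and heat shock genes, which cell dissociation can induce, gave 4 higher and 10 lower of 29, near the 18.3% and 28.9% of all genes. fosaa, a Fos gene, was at 4.10 and 15.8 against 137 and 90.1 FPKM (-3.60 ± 0.46), and jun at 386 and 443 against 945 and 1261 FPKM (-1.40 ± 0.14). hspa8, a chaperone made at all times, was at 3252 and 3315 against 1256 and 1130 FPKM (1.46 ± 0.09), and mcl1a, which blocks cell death, at 654 and 585 against 179 and 166 FPKM (1.83 ± 0.14). These counts moved with the processing: 17 were lower at a common FPKM sum, 2 with all 24 libraries, 6 by voom, 5 without EC replicate 1 and 6 without DN replicate 1, and 2 were higher at a common sum, with all 24 libraries or without DN replicate 2. Whether the handling of the sorts differed was not tested.

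On the DN side, neural genes led. All 33 tested members of the neural list were lower in EC-labelled libraries (median -4.27), where their summed FPKM was 249.2 and 404.9 against 6552 and 6609 in DN libraries. elavl4, an RNA-binding protein of neurons, was at 12.4 and 22.1 FPKM against 444 and 412 FPKM (-4.61 ± 0.24, adjusted p = 6.3e-08). snap25a and snap25b, which fuse synaptic vesicles, were at 13.97 and 28.6 against 512 and 474 FPKM (-4.55 ± 0.44) and at 12.2 and 17.8 against 359 and 400 FPKM (-4.59 ± 0.25). sncgb, a synuclein gene, was at 14.9 and 29.5 against 508 and 519 FPKM (-4.54 ± 0.30). EC-labelled replicate 2 held more of each than replicate 1, and neither reached 7% of the DN mean over the list (3.79% and 6.15%). neurod1, a neuronal fate factor, was at 0.726 and 6.03 against 111 and 81.7 FPKM (-4.79 ± 0.48).

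Genes known from neurons were also among the 12 named for the largest falls over the whole table. otpa, a homeobox factor of hypothalamic and spinal neurons, was at 16.1 and 23.6 against 566 and 575 FPKM (-4.80 ± 0.23). pcp4b, a calmodulin-binding peptide gene, was at 11.9 and 29.6 against 592 and 605 FPKM (-4.92 ± 0.31), and lhx5, a factor of spinal interneurons, at 2.64 and 3.99 against 128 and 107 FPKM (-4.80 ± 0.23). uts2a and uts2b, urotensin peptide genes, were at 0 and 1.57 against 69.6 and 32.7 FPKM (-4.93 ± 0.50) and at 0 and 1.67 against 41.7 and 54.7 FPKM (-4.90 ± 0.45). All 5 were listed at 0 in both HSPC libraries. The other genes named by size were nkain2, a partner of the sodium pump (-5.04 ± 0.27), tagln3b (-4.80 ± 0.56), nkx1.2lb (-4.79 ± 0.37), the orphan receptor gene gpr173 (-4.79 ± 0.30), bhlhe22 (-4.77 ± 0.31) and hoxa9b.

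Glial genes were lower in 13 of 16 cases (median -2.11) and higher in 1. mbpa, myelin basic protein, was at 0.438 and 1.59 against 29.4 and 26.4 FPKM (-3.90 ± 0.28). plp1b and mpz, other myelin proteins, fell by 3.70 ± 0.35 and 3.03 ± 0.32, and sox10, the neural crest and glia factor, fell by 2.89 ± 0.31. slc1a2b, a glutamate transporter of astrocyte-like glia, was at 4.10 and 6.30 against 123 and 142 FPKM (-4.45 ± 0.21). The higher member was cx43, a gap junction gene, at 10.6 and 8.73 against 2.67 and 2.79 FPKM (1.51 ± 0.37).

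Every hox gene tested was lower, 48 of 48, with a median of -3.53. These genes lie in clusters and are used along the body axis in the order of their paralog groups, high numbers toward the tail. The fall held along the series. Groups 1 to 4, 13 genes, summed to 17.11 and 44.34 against 775.2 and 506.7 FPKM (median -3.45), and groups 5 to 8, 12 genes, to 19.03 and 40.29 against 448.5 and 335.4 FPKM (median -3.05). Groups 9 to 13, 23 genes, summed to 101.9 and 191.5 against 3527 and 2938 FPKM (median -4.25). The posterior groups thus held most hox transcript in both sorts. hoxc12a was at 28.9 and 38.4 against 862 and 867 FPKM (-4.66 ± 0.30), and hoxa9b at 1.44 and 10.4 against 209 and 167 FPKM (-5.16 ± 0.50). hoxd3a, hoxd10a and hoxd11a fell by 4.46 ± 0.34, 4.56 ± 0.34 and 4.58 ± 0.40. Summed over the list, EC-labelled libraries held 3.24% and 6.47% of the DN mean, beside 3.79% and 6.15% for the neural list. Whether the same cells carry both was not tested.

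**Figure D4:**
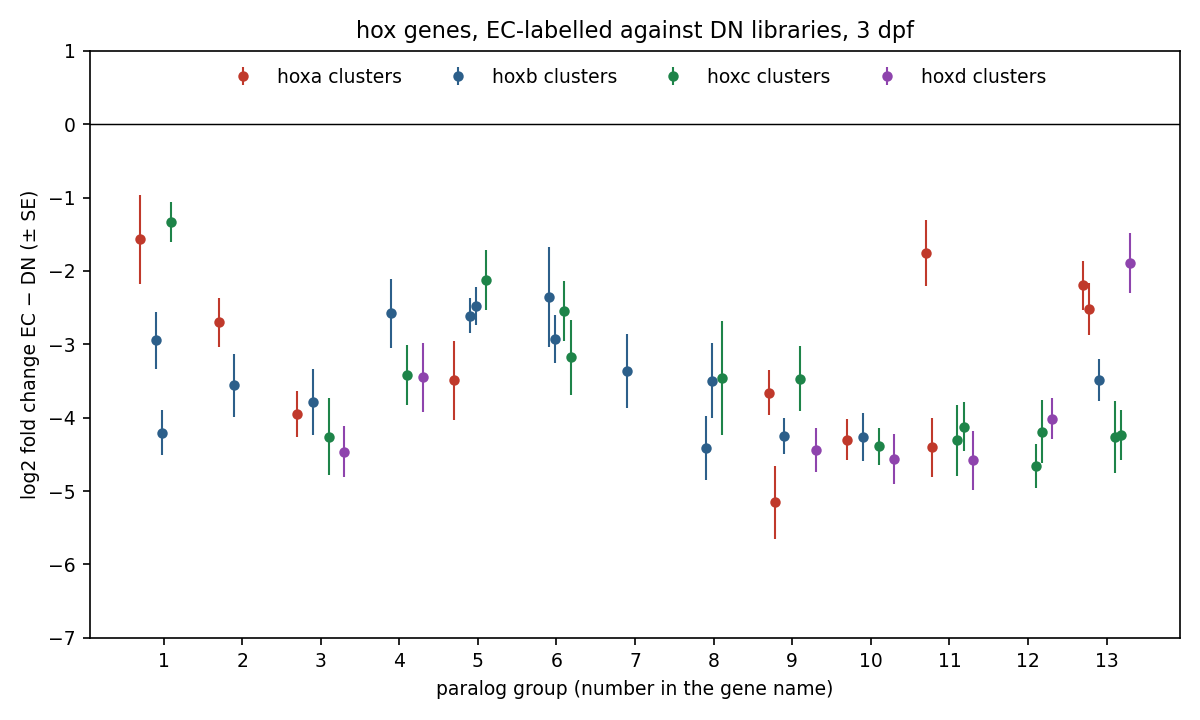
Log2 fold change, EC-labelled minus DN at 3 dpf, with its SE for 48 hox genes by paralog group, coloured by cluster letter. All points lie below 0, and the median of groups 9 to 13 is -4.25 against -3.05 in groups 5 to 8.

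Skin, fin and gut genes were lower by less. Of 33 epidermal genes 23 were lower and none higher (median -1.44), but with all 24 libraries 2 were lower. EC-labelled libraries held 22.0% and 21.1% of the DN mean. epcam, the adhesion molecule of epithelia, was at 68.8 and 39.8 against 207 and 563 FPKM (-2.68 ± 0.40), and the tight junction gene cldnb at 58.5 and 93.1 against 368 and 791 FPKM (-2.85 ± 0.51). The DN libraries differed from each other here: cldne was at 56.6 in replicate 1 and 349 FPKM in replicate 2 (-2.94 ± 0.67), and icn2, an ictacalcin of skin, at 54.6 and 415 FPKM (-2.91 ± 0.68). Ionocyte genes were lower in 4 of 11 cases, among them the pump subunit gene atp1b1b (-3.52 ± 0.43) and the fate factor foxi3b (-2.06 ± 0.34), and in 2 with all 24 libraries. For 5 of the 11 both EC-labelled libraries lay below both DN libraries. These shares are not far from the 28.9% lower and 44.3% below of all genes. Of 15 liver, yolk and gut genes 7 were lower, all of them plasma proteins, with apoa2 at 2.203 and 5.29 against 72.0 and 28.4 FPKM (-3.37 ± 0.65), apoa1a at -3.26 ± 0.55 and apoc1 at -3.23 ± 0.26. Pigment genes gave 3 lower of 12, all under 5 FPKM and near the share of all genes, though 11 lay below without overlap. That count of 3 was 1 without DN replicate 2, 0 with all 24 libraries or a pseudocount of 5 FPKM, and 5 at a common FPKM sum.

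Connective tissue genes were mostly lower in the mesenchyme list and split in the notochord list. Of 29 fibroblast and fin genes 17 were lower (median -1.14). col1a1a, the main fibrillar collagen, was at 64.3 and 89.4 against 361 and 207 FPKM (-1.83 ± 0.30), and and1, an actinodin of fin rays, at 30.0 and 40.8 against 157 and 111 FPKM (-1.89 ± 0.22). and3 fell by 2.11 ± 0.37. The count of 17 was 7 with a pseudocount of 5 FPKM and 1 with all 24 libraries. The higher member was col5a3a, at 4.50 and 4.03 against 0.131 and 0.491 FPKM (2.02 ± 0.27) and at 6.98 and 6.59 FPKM in HSPC libraries.

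Notochord and cartilage genes were split: 9 were higher, 1 lower and 13 not called of 23, with a median of 0.32. For 12 both EC-labelled libraries lay above both DN libraries and for 9 below, against 30.3% and 44.3% of all genes. The genes named next are the higher members with the largest changes. col2a1a, the collagen of the notochord sheath and cartilage, was at 164.5 and 163.5 against 13.7 and 13.97 FPKM (3.47 ± 0.40). col9a1b and col9a2, which bind it, were at 104 and 106 against 9.58 and 8.61 FPKM (3.39 ± 0.33) and at 45.0 and 46.5 against 5.19 and 2.60 FPKM (3.31 ± 0.40). The EC-labelled replicates agreed closely on all 3, and the HSPC libraries held at most 3.52 FPKM of col2a1a. matn3a, a matrix linker, was higher by 3.12 ± 0.54, and ucmab, a cartilage matrix protein gene, by 3.18 ± 0.51. The lower member was hapln1a, a hyaluronan link protein, at 1.15 and 1.87 against 21.5 and 19.8 FPKM (-3.12 ± 0.26). Over the list the EC-labelled libraries held 476.5 and 470.9 FPKM against 106.6 and 99.78 FPKM, 462% and 456% of the DN mean. Whether cells of the notochord entered the EC-labelled sort was not tested. Lower calls in the list ran from 1 to 4 when 1 library was left out, and were 5 at a common FPKM sum and 3 by median-of-ratios.

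Skeletal muscle genes, which fill most of a tail, did not separate the groups: 1 of 36 was lower, none was higher, and the median was -0.37. The list summed to 683.4 and 236.0 FPKM in EC-labelled and 479.2 and 709.8 FPKM in DN libraries, against 11.59 and 21.26 FPKM in HSPC libraries. EC-labelled replicate 1 thus overlapped the DN libraries and replicate 2 lay below them, and the count of lower genes was 12 without EC replicate 1, 4 without DN replicate 1 and 7 at a common FPKM sum. The called gene was desma, desmin, at 0.369 and 0.0410 against 2.11 and 1.48 FPKM (-1.22 ± 0.31). None of 6 eye genes and 1 heart gene tested was called.

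The last comparison asked whether the EC minus DN difference at 3 dpf was that of 36 hpf, in the same fit. At 36 hpf 2194 genes (11.7%) were higher and 1729 (9.2%) lower in EC libraries, 20.9% of those tested. The difference between the stages itself was called for 6349 genes (33.8%), 1666 (8.87%) with a larger and 4683 (24.9%) with a smaller value at 3 dpf, and its median over all genes was -0.39. With all 24 libraries only 30 genes differed upward and 723 downward over the whole table. The stage differences counted by list below were not counted in that fit, and many of them cannot be among its calls. Sample titles name the CHT only from 52 hpf on, so a difference in dissection cannot be told apart from stage. Both stages were sorted from the same line, and no library is shared between the stages' contrasts.

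At 36 hpf the EC libraries held endothelial transcripts. kdrl was at 5.16 and 3.68 FPKM in EC and 0.562 and 0.283 FPKM in DN libraries of that stage (1.92 ± 0.23, adjusted p = 2.2e-04), and the difference between stages was -1.92 ± 0.33 (adjusted p = 1.3e-03). cdh5 was at 6.18 and 4.10 against 0.0945 and 0.138 FPKM at 36 hpf, and its stage difference was -2.10 ± 0.32, a value that was 0.12 by limma-voom. egfl7 was at 20.3 and 14.8 against 0.210 and 0.792 FPKM, with a stage difference of -3.53 ± 0.48. Of the endothelial list, 20 members were higher and 1 lower at 36 hpf against 11 and 8 at 3 dpf, and the stage difference was lower for 18 and higher for 3. flt4 (-2.27 ± 0.40) and pecam1 (-1.62 ± 0.53) were among the 18, pecam1 losing its call when any of EC replicate 2 or DN replicate 2 at 3 dpf, EC replicate 1 at 36 hpf, or either DN replicate at 36 hpf was left out (-1.62 to -1.002). itga2b was listed at 0 in all 4 libraries at 36 hpf, and its difference was 2.78 ± 0.34. dll4 was alike in both sorts at 36 hpf, 22.8 and 19.6 against 17.9 and 20.1 FPKM, and its difference was -2.95 ± 0.34. nr2f2 differed by -3.07 ± 0.52.

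Part of the blood genes differed upward between stages, beside 8.87% of all genes. Upward differences were called for 13 of 20 pan-leukocyte, 11 of 24 neutrophil, 8 of 21 macrophage, 10 of 27 stem and progenitor, 6 of 16 thrombocyte and 7 of 24 red cell membrane, iron and factor genes, and downward ones for 1 macrophage, 2 stem and progenitor and 2 red cell genes. myb was at 19.2 and 23.1 against 6.40 and 7.35 FPKM at 36 hpf, and its stage difference was 4.18 ± 0.45 (adjusted p = 1.0e-04). The 5 genes named for the largest upward difference were hdac7b (4.88 ± 0.44), mmp13a (4.55 ± 1.05), blf (4.31 ± 0.40), ccr9a (4.28 ± 0.68) and cxcr4b (4.18 ± 0.40). hdac7b, a class II histone deacetylase, was under 1 FPKM in all 4 libraries at 36 hpf and at 42.2 and 67.5 against 0.387 and 0.768 FPKM at 3 dpf. runx1 differed by 3.15 ± 0.68. Neutrophil genes were already higher at 36 hpf in 17 of 24 cases. lyz, at 1813 and 2982 against 40.1 and 31.9 FPKM there, had a stage difference of 0.63 ± 0.38 and mpx one of 0.76 ± 0.38, and neither was called, though mpx was at 1.13 without DN replicate 2 at 3 dpf (adjusted p = 0.0396) and 1.01 with a pseudocount of 5 FPKM (adjusted p = 0.0271). Of 10 heme synthesis genes 5 differed upward, among them alad (2.49 ± 0.43) and urod (2.72 ± 0.33), whereas cpox (0.65 ± 0.60) was not called. slc4a1a differed by 1.999 ± 0.48. Globins went the other way: 7 of 9 were higher in EC libraries at 36 hpf, and hbae3, at 10620 and 8134 against 3209 and 3355 FPKM there, had a stage difference of -2.09 ± 0.37.

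Most division and ribosomal genes differed upward between stages. Of 49 DNA replication genes 24 were already higher at 36 hpf and 36 differed upward. Of 46 mitosis genes 2 were higher at 36 hpf and 43 at 3 dpf, and 39 differed upward. ncapg was at 29.6 and 25.5 against 19.6 and 24.2 FPKM at 36 hpf, and differed by 3.28 ± 0.37. The EC values were near those of 3 dpf, 38.5 and 29.8 FPKM, whereas the DN values at 3 dpf were 1.86 and 1.88 FPKM. cdk1 showed the same, at 59.3 and 46.7 against 21.1 and 21.2 FPKM at 36 hpf, with a difference of 2.43 ± 0.63, and pcna (3.03 ± 0.41) and mcm2 (2.76 ± 0.45) differed upward too. No ribosomal protein gene of 79 was called at 36 hpf, 77 were higher at 3 dpf, and 77 differed upward, while rps8b differed downward (-2.76 ± 0.46). rplp2l was at 1930 and 1688 against 1197 and 1096 FPKM at 36 hpf and differed by 2.46 ± 0.19. For rplp2l the EC values of 3 dpf were above and the DN values below those of 36 hpf.

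Neural and hox genes differed mostly downward, beside 24.9% of all genes. Of 33 neural genes 26 were already lower at 36 hpf and 32 differed downward, and of 48 hox genes 23 were lower at 36 hpf and 36 differed downward. Other tail lists varied. Downward differences were called for 22 of 29 fibroblast and fin, 12 of 16 glial, 19 of 33 epidermal and 11 of 23 notochord and cartilage genes. They were called for 4 of 11 ionocyte, 5 of 36 skeletal muscle and 1 of 12 pigment genes. Of the notochord and cartilage genes 15 were higher at 36 hpf and 9 at 3 dpf, with medians of 1.62 and 0.32. The stage differences of col2a1a, col9a1b and col9a2 were not called. neurod1 was alike in both sorts at 36 hpf, at 28.3 and 37.9 against 28.3 and 35.5 FPKM, and its stage difference was -4.84 ± 0.68. hoxa9b differed by -3.88 ± 0.71. cxcl12a was higher in EC libraries at 36 hpf, at 4.51 and 3.69 against 0.684 and 2.02 FPKM, and differed by -4.20 ± 0.42, so it changed sides. mdkb differed by -2.64 ± 0.81, a call that was lost without either DN replicate or EC replicate 1 at 36 hpf and without either DN replicate or EC replicate 1 at 3 dpf (-2.74 to -2.27). The 5 genes named for the largest downward difference were at 5.42 FPKM or less in all 4 libraries at 3 dpf. he1a and he1b, hatching enzyme genes, were at 1859 and 1361 and at 682 and 416 FPKM in EC libraries at 36 hpf, with stage differences of -8.43 ± 0.67 and -7.73 ± 0.69. ctslb, a cathepsin of the hatching gland, was at 240 and 195 FPKM there (-6.93 ± 0.58), slc2a1a, a glucose transporter, at 105 and 137 FPKM (-6.39 ± 0.37), and tagln, a smooth muscle actin binder, at 66.3 and 82.0 FPKM (-6.72 ± 0.58). In DN libraries of 36 hpf these 5 genes were at 8.35 FPKM or less.

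**Figure D5:**
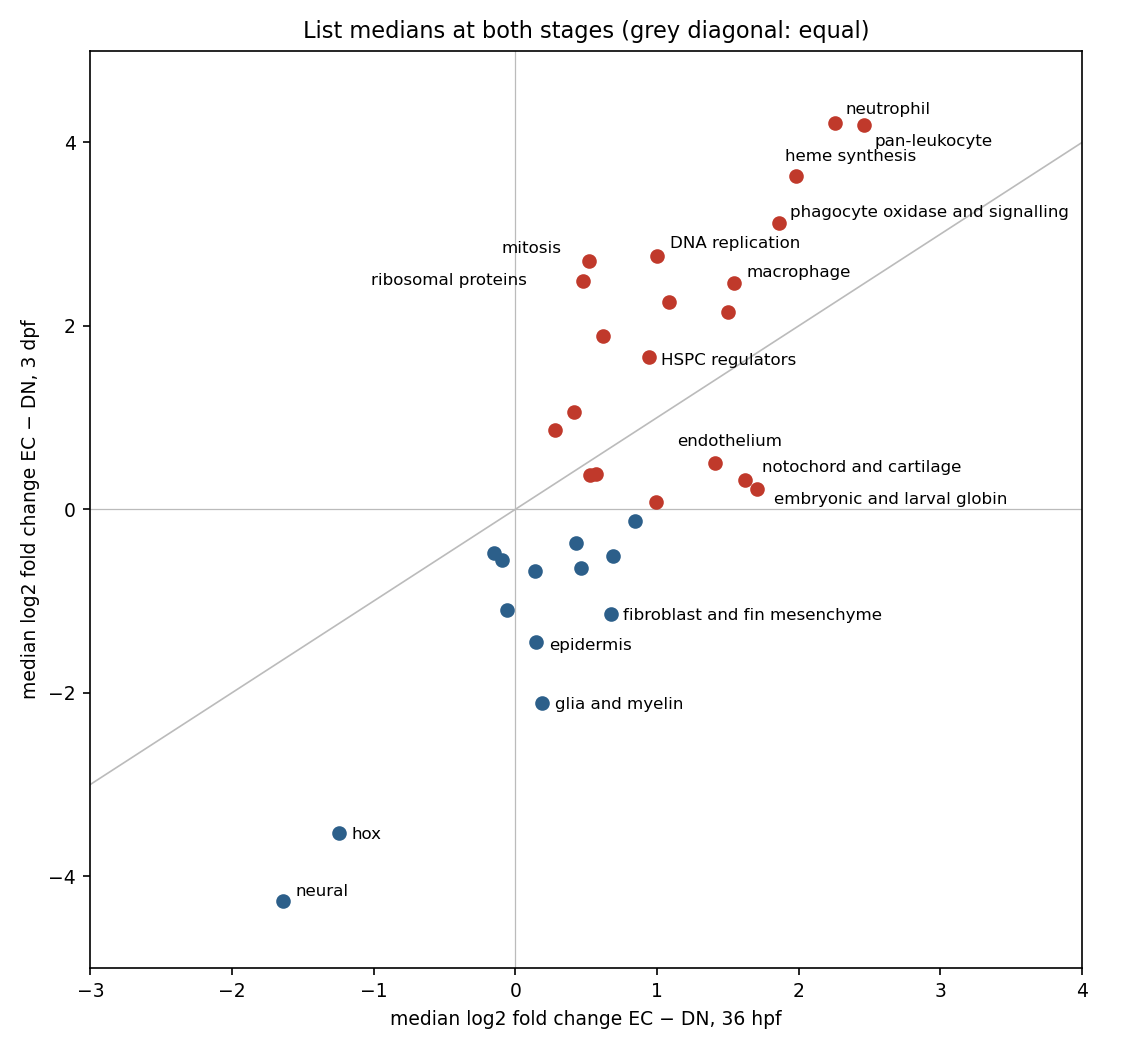
Median log2 fold change, EC minus DN, of 33 gene lists at 36 hpf (horizontal) and 3 dpf (vertical), red where above 0 at 3 dpf and blue where below. Neutrophil and pan-leukocyte lists lie highest at both stages, and mitosis and ribosomal lists go from 0.52 and 0.48 to 2.70 and 2.49. Glia, epidermis and fibroblast lists cross from above to below 0. Skeletal muscle, pigment, niche signal, dissociation stress and mitochondrially encoded lists do so too. The median of all genes also crosses, from 0.106 to -0.239.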

How the data were processed

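FPKM values per gene, made and deposited by the authors, cover 24 libraries in 12 groups of 2, with genes named by symbol. The labels' protocols give RNeasy Mini for RNA isolation and NEBNext Ultra for library preparation. FastQC, HISAT, HTSeq, DESeq2 and the build GRCz10 are named, without versions or roles, per the submitters' processing notes. FPKM depends on gene length and on the library total, so abundant genes lower the values of the rest. Reads were recovered as multiples of each gene's FPKM step. They were whole, within 0.01 reads, in 23718 of 23718 genes detected in 3 or more libraries, and served only for depth and the voom alternative. Gene positions and promoter motifs were not analysed here.

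The fit took the 14 libraries up to 3 dpf, 7 group means and no covariate. Titles of the earliest stage among them name no tail or CHT. Genes that reached 1 FPKM in 2 or more of these libraries were kept. The fit used limma 3.58.1 under R 4.3.3, with its trended empirical Bayes step, on log2(FPKM + 1). The other groups lend their spread to these pairs, leaving 7 residual and 4.59 prior degrees of freedom. The 4 dpf and kidney groups were left out because earlier results of these data had shown poorly agreeing pairs there. Spearman correlations between replicates were 0.382 (EC, 4 dpf), 0.752 (HSPC, 4 dpf) and 0.808 (DN, kidney). The other groups left out had 0.934 (DN, 4 dpf) and 0.945 (HSPC, kidney). HSPC at 3 dpf, which was kept, had a lower value than these, 0.872. That choice of groups, made with the data known, set the spread behind the p-values, and all 24 libraries gave fewer calls. The pseudocount of 1 understates changes of genes with low values. An exact 0 is called listed at 0. P-values are two-sided and adjusted by Benjamini-Hochberg over all genes tested. The fit and the recovery were tested on simulated data. The fit called 10.45%, 44.78% and 75.76% of simulated 2-fold, 4-fold and 8-fold changes in the right direction, and 24 of 18090 unchanged genes. Only 67, 67 and 66 genes were changed in the simulation, whereas 47.1% of genes were called in the data. Because the adjustment of p-values depends on that share, these rates do not carry over to the data. A gene not called may still differ. The recovery returned the simulated reads in 99.61% of genes.

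The members and gene lists were chosen with earlier results of these data known, and lists were described by counts without a set test. Named genes were both reporter genes and, per direction, the 12 called genes with the largest change, up to 5 called members of each list and the 5 genes with the largest stage difference. The 12 also needed a symbol that is no clone name, 5 FPKM on average in the higher group and groups without overlap, and the 5 of the stage difference the same symbol rule and 5 FPKM on average in any of the 4 groups. Markers that define endothelium, runx1, mpeg1.1, mpeg1.2, alas1, alas2, hbae3 and the stage values of list members were added after their values were seen. Alternatives were pseudocounts of 0.1 and 5 FPKM, no filter, scaling to a common sum or by median of ratios, the replicate number as a block, all 24 libraries, only the groups compared, limma-voom on recovered reads and leaving out each library. Tables and figures used Python 3.11.15, numpy 2.4.6, pandas 2.3.3 and matplotlib 3.10.9.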

Additional observations from a re-analysis of the deposited data

Results flagged for a closer look

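The EC minus DN difference was tested between 3 dpf and 36 hpf within the same limma fit, and every gene below differed between the stages by that test. Values are 3 dpf minus 36 hpf on the log2 scale. They are named because the comparison of stages describes them, out of 6349 of 18791 genes (33.8%) with such a difference.

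Among endothelial genes, the difference was -1.92 for kdrl, -2.10 for cdh5, -3.53 for egfl7, -2.27 for flt4, -1.62 for pecam1, -2.95 for dll4 and -3.07 for nr2f2. For itga2b, the CD41 gene, it was 2.78. Among blood genes it was 4.18 for myb, 3.15 for runx1, 4.31 for blf, 4.28 for ccr9a, 4.18 for cxcr4b, 4.55 for mmp13a and 4.88 for hdac7b. Red cell genes went both ways, with 2.49 for alad, 2.72 for urod and 1.999 for slc4a1a, and -2.09 for the globin gene hbae3. Among division and ribosomal genes it was 2.76 for mcm2, 3.03 for pcna, 2.43 for cdk1, 3.28 for ncapg, 2.46 for rplp2l and -2.76 for rps8b. Among neural, hox and niche signal genes it was -4.84 for neurod1, -3.88 for hoxa9b, -4.20 for cxcl12a and -2.64 for mdkb. The hatching gland genes he1a, he1b and ctslb differed by -8.43, -7.73 and -6.93, tagln by -6.72 and slc2a1a by -6.39. Whether the dissection differed between the stages was not tested.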

How the results depend on the processing

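Main counts were 3431 genes higher and 5425 lower, and 347 and 201 list members. With a pseudocount of 5 FPKM, 2205 were higher, 3502 lower and 2905 differed downward between stages (main 4683). With all 24 libraries, 1110 were higher and 3587 lower, 128 list members were lower, and 30 and 723 genes differed upward and downward between stages (main 1666 and 4683); the cause was not tested. Counts without 1 library ran from 3149 to 3382 higher and from 5026 to 5304 lower. At a common FPKM sum 2700 were higher and 6688 lower. The kdrl change turned to -0.098 at a common sum and -0.030 by median-of-ratios, and ran from -0.063 to 0.080 without 1 library. By voom the cdh5 stage difference was 0.12. Of 155 called genes with a printed 3 dpf change, 129 were called under every alternative and none changed sign. Many of these genes were named for the size of their change, so that share does not stand for all called genes. Of 34 called stage differences 12 were called under every alternative. Same-numbered libraries did not deviate together (EC against DN at 3 dpf -0.346, range -0.346 to 0.19 over 21 pairs of groups), and at 3 dpf the numbers may be crossed between the sorts. With the replicate block 3413 were higher and 5407 lower, and 1619 and 4537 differed between stages. With crossed numbers, chosen after seeing the data, as was leaving out HSPC at 36 hpf, 3590 were higher and 5509 lower. Depth limits genes under 1 FPKM, such as kdrl at 17 to 25 reads.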

Other observations

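Some genes were counted in 1 sort alone. Their naming followed their values, and no fold is given against a group at 0. At least 5 FPKM in both EC-labelled libraries and 0 in both DN libraries was seen for 17 genes, and the reverse for 2. il4, the cytokine of type 2 immunity, was at 13.8 and 36.0 FPKM, from 83 and 278 reads. tnfsf18, a tumor necrosis factor family ligand, was at 20.1 and 16.1 FPKM, and tnfrsf9b, a receptor of that family, at 9.31 and 21.5 FPKM. il21r.2, an interleukin receptor gene, was at 13.7 and 8.78 FPKM, the chemokine receptor gene ccr12b.1 at 14.2 and 14.1 FPKM and the chemokine gene ccl38a.4 at 7.90 and 5.56 FPKM. zbtb32, a repressor of lymphocytes, was at 15.1 and 7.47 FPKM, and orai1a, a calcium channel gene, at 10.9 and 6.82 FPKM. On the DN side uts2d, a urotensin peptide gene, was at 7.03 and 5.36 FPKM, from 49 and 35 reads. Over all tested genes, 304 were listed at 0 in both DN libraries and 297 in both EC-labelled libraries.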
